A study of Mus musculus with 4 samples.

Results

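Jak1, Jak3, Stat3, Stat5a, Stat5b, Stat6, Socs1, Socs2, Socs3 and Cish, which encode Janus kinases, STAT transcription factors and SOCS proteins, were followed in cultured ILC2s given vehicle or deoxycholic acid (DCA). They were taken by symbol from the deposited table, and all 10 were found among its 27179 genes. ILC2s, group 2 innate lymphoid cells, are lymphocytes that lack antigen receptors and make type 2 cytokines, and DCA is a secondary bile acid made by gut bacteria. The cells were sorted as CD45.2+Lin-CD127+KLRG1+ from the large intestine of WT C57BL/6 mice and cultured for 5 days with 4 cytokines at 10 ng/mL each, IL-2 and IL-7, which use the JAK-STAT pathway, and IL-33 and IL-25. The age of the mice is given as 6 to 8 weeks in one section of the methods and as 6 to 14 weeks in another. Vehicle-treated ILC2s (2 libraries) were then compared with ILC2s given 100 μM DCA (2 libraries), for 16 hours by the deposited design text and for 24 hours by the methods. Both groups carried no genetic change and were kept in the same 4 cytokines. Whether the 2 libraries of a group came from separate mice or cultures is not stated, so p-values measure only the spread between these libraries.

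JAK-STAT signaling carries the message of many cytokines from the cell surface to the nucleus. When a cytokine draws its receptor chains together, the Janus kinases bound to them phosphorylate the chains and then the STAT proteins that dock there, which pair, enter the nucleus and bind DNA. SOCS proteins are made in response and restrain the same receptors, so that Cish and the SOCS genes act as feedback inhibitors. IL-2 and IL-7, both present in this culture, signal through JAK1 and JAK3 to STAT5A and STAT5B. IL-4 and IL-13 act through STAT6, and IL-6, IL-10 and IL-21 act largely through STAT3.

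The vehicle libraries held 35838342 and 26564059 counts, and the DCA libraries 32102232 and 244165712, so DCA replicate 2 was far deeper than the rest. Where no read was counted, up to 3 counts remain possible, equal to 0.0125 CPM (counts scaled to the normalized library total) in that library and to between 0.0821 and 0.115 CPM in the others. This limit covers counting error only. Across genes, which are not independent replicates, Pearson's r of log2 CPM between libraries lay between 0.872 for the vehicle libraries and 0.932 for the DCA libraries. Each vehicle library was closer to both DCA libraries (r between 0.884 and 0.915) than to the other vehicle library. By this measure the vehicle libraries did not group by treatment. Of the 8 ILC2 markers, 7 were detected in all 4 libraries, among them Gata3 (600 to 840 CPM) and Il7r and Klrg1, whose products CD127 and KLRG1 were part of the sort. Detection is all that this check covers, since levels of several markers differed between the groups, as given with the markers of other cell types. Thy1 was the exception, at 4.24 CPM in DCA replicate 1 and between 0 and 0.0547 CPM in the others.

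Of the 10 genes, 4 lie on mouse chromosome 11, and 3 of these are neighbors. On GRCm38.p6, RefSeq places Stat5b at chr11:100780731-100859004, Stat5a at chr11:100859351-100885169 and Stat3 at chr11:100886806-100939594. Socs3 lies apart from them at chr11:117966079-117970336. Jak1 is at chr4:101151974-101265282, Jak3 at chr8:71676383-71690577 and Cish at chr9:107296659-107302784. Socs2 (chr10:95383903-95417321) and Stat6 (chr10:127642955-127660987) share a chromosome, and Socs1, the shortest of the 10 genes, is at chr16:10783808-10785536.

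STAT proteins bind DNA at the palindrome TTCNNNGAA, so the RefSeq windows from 250 bases before to 50 bases after each start were searched for it. The motif reads the same on both strands. It was found in 2 of the 9 genes that have a window, Cish and Socs3, and in 8.30% of all 32851 windows. Those 9 genes had 11 windows, so the count by gene and the share by window are unlike measures. Cish held 2 matches, and 0.457% of all windows held 2 or more. The form with 4 free bases between TTC and GAA, which STAT6 prefers, was in none of the 9 genes and in 6.95% of all windows. The matching stretches are shown because Cish and Socs3 were the genes with a match, with the motif in capitals, on GRCm38.p6, at chr9:107296654-107296683 (plus strand) for Cish and chr11:117969496-117969525 (minus strand) for Socs3.

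Cish: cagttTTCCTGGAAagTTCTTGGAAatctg

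Socs3: cagccTTCTTAGAAgggaggggggggaaag

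The Cish matches begin at the first transcribed base and 11 bases after it, in the first exon, and the Socs3 match begins 154 bases before the start that the window was built on. That Socs3 start lies inside the annotated gene, so the Socs3 match is within the gene's span. A match is a description of the letters and not a binding site shown in these cells, and windows without a match say nothing of sites elsewhere.

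Stat5a and Stat5b are closely related copies, which bears on how far their counts can be separated. Their coding sequences, of 2391 and 2358 bases, matched at 90.9% of 2291 aligned bases. The longest identical run held 324 bases, from coding base 571 to 894 in both genes, and spans exons 6 to 8 of Stat5a. The first 150 bases of it, as long as 1 sequenced read, are printed to show a stretch that no single read could assign. They come from exons 6 and 7 of 18 of Stat5a (GENCODE M21, GRCm38, chr11:100874023-100874377, plus strand, with the intron removed).

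Stat5a and Stat5b shared run: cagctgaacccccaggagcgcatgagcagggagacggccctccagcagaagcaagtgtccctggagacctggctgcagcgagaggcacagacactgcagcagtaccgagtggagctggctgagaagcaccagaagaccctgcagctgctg

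Of all 150-base windows of the Stat5a transcript with the longest coding sequence, 5.06% also occurred in the Stat5b transcript chosen alike. Of the 50-base windows of the same Stat5a transcript, 17.1% did. How the authors assigned such reads is not given in the sources used here, so a small part of each gene's counts could belong to the other. Exons of Stat3 and Stat5a, on opposite strands, share 72 bases in GENCODE M21, and the library kit does not mark strand. Cish shares 261 and 479 exon bases with the antisense genes Gm17040 and Gm17041, which were not analysed here. Jak3 shares 404 exon bases with Insl3 on the same strand, where Insl3 held at most 57 counts in any library and Jak3 at least 4202. Stat6 shares 40 bases with Nab2 and Jak1 shares 4 with Raver2. Exons of Stat5b, Socs1, Socs2 and Socs3 met no other gene.

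Among the Janus kinases, Jak1 transcripts were lower in each DCA library than in any vehicle library, and Jak3 transcripts were not separated by treatment. JAK1 works with receptors of the common γ chain, gp130, IL-10 and interferon families. Jak1 (Entrez 16451) was at 345 and 287 CPM in vehicle replicates 1 and 2 and at 248 and 264 CPM in DCA replicates 1 and 2, with group means of 316 ± 41.1 and 256 ± 11.2 CPM (SD, n = 2 each). The groups did not overlap, and their gap lay between 287 and 264 CPM. On the log2 scale the fold change was -0.30 (95% interval -0.83 to 0.23, unadjusted p = 0.216 and adjusted p = 0.999 with edgeR's quasi-likelihood test). JAK3 binds the common γ chain of the IL-2, IL-4, IL-7, IL-9 and IL-21 receptors. Jak3 (Entrez 16453) was at 202 and 161 CPM with vehicle and at 202 and 126 CPM with DCA. Vehicle replicate 1 and DCA replicate 1 were level, and DCA replicate 2 was the lowest of all. Jak3 had a log2 fold change of -0.15 (95% interval -0.89 to 0.59, unadjusted p = 0.647). Without DCA replicate 2 it was 0.16, and without vehicle replicate 1 it was 0.00012, so that its direction rested on single libraries.

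All 4 STAT genes had a log2 fold change below 0, and none passed the test. Stat3 was lower in each DCA library than in any vehicle library, which held for 14.7% of all genes tested. Stat3 (Entrez 20848), which encodes the STAT used by IL-6 family cytokines, IL-10 and IL-21, was at 272 and 236 CPM with vehicle and at 222 and 157 CPM with DCA. Its means were 254 ± 25.5 and 190 ± 46.0 CPM (SD, n = 2 each). The groups did not overlap, but the distance between the DCA libraries was larger than the gap between the groups. The log2 fold change was -0.42 (95% interval -1.05 to 0.21, unadjusted p = 0.155), and it ranged from -0.70 without DCA replicate 1 to -0.19 without DCA replicate 2.

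STAT5A and STAT5B pass on the signals of IL-2 and IL-7, and the groups overlapped for both genes. Stat5a (Entrez 20850) was at 28.6 and 33.1 CPM with vehicle and at 29.5 and 20.8 CPM with DCA. Only DCA replicate 2 stood below the vehicle libraries. Its log2 fold change was -0.30 (95% interval -1.34 to 0.75, unadjusted p = 0.516), and without DCA replicate 2 it was -0.065. Stat5b (Entrez 20851) was at 47.6 and 64.7 CPM with vehicle and at 50.9 and 47.8 CPM with DCA. Here vehicle replicate 2 was high and the other 3 libraries lay between 47.6 and 50.9 CPM. Stat5b had a log2 fold change of -0.19 (95% interval -0.99 to 0.62, unadjusted p = 0.591), and it was 0.052 without vehicle replicate 2.

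Stat6 had the widest spread between replicates of the 10 genes. STAT6 carries IL-4 and IL-13 signals and supports type 2 cytokine programs. Stat6 (Entrez 20852) was at 154 and 51.8 CPM with vehicle and at 70.6 and 52.2 CPM with DCA. Vehicle replicate 1 was thus 2.97 times as high as vehicle replicate 2, which was level with DCA replicate 2. The log2 fold change of -0.75 (95% interval -2.02 to 0.52, unadjusted p = 0.203) turned to 0.22 without vehicle replicate 1 and reached -1.33 without vehicle replicate 2. The interval leaves room for a level in DCA between 0.247 and 1.44 times that in vehicle.

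Among the feedback inhibitors, Socs1 transcripts were higher in each DCA library than in any vehicle library, and Socs2, Socs3 and Cish were centered near the vehicle level with overlapping groups. SOCS1 inhibits Janus kinases directly. Socs1 (Entrez 12703) was at 199 and 232 CPM with vehicle and at 268 and 259 CPM with DCA, with means of 215 ± 22.8 and 263 ± 6.89 CPM (SD, n = 2 each). The DCA libraries lay close together and above both vehicle libraries. The log2 fold change was 0.29 (95% interval -0.24 to 0.82, unadjusted p = 0.231), and it stayed between 0.16 and 0.40 when any single library was left out.

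Cish and Socs2 are well-known STAT5 target genes in lymphocytes, and they are described side by side for that reason. Cish (Entrez 12700) encodes CIS, which dampens IL-2 receptor signaling, and was at 514 and 416 CPM with vehicle and at 575 and 358 CPM with DCA. The highest and the lowest library were both DCA libraries, and the group means were 465 ± 69.3 and 467 ± 154 CPM (SD, n = 2 each). The log2 fold change of Cish was 0.0048 (95% interval -0.70 to 0.70, unadjusted p = 0.987) and fell just below 0 under other scalings, at -0.018 with median-of-ratios and -0.0042 with total-count scaling. Leaving out DCA replicate 1 gave -0.38, leaving out DCA replicate 2 gave 0.31, and leaving out vehicle replicate 2 gave -0.14. Socs2 (Entrez 216233), whose product also limits growth hormone signaling, was at 91.8 and 96.1 CPM with vehicle and at 108 and 77.6 CPM with DCA. Its vehicle libraries again lay between the DCA libraries. Socs2 had a log2 fold change of -0.019 (95% interval -0.71 to 0.67, unadjusted p = 0.949), and it was 0.20 without DCA replicate 2 and 0.015 without vehicle replicate 2.

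Socs3, whose product blocks receptors that signal through gp130, split the libraries by replicate number rather than by treatment. Socs3 (Entrez 12702) was at 25.6 and 16.4 CPM with vehicle and at 26.0 and 18.3 CPM with DCA. The first library of each group was high and the second was low. Jak3, Stat6 and Cish likewise had both first libraries above both second libraries. The log2 fold change was 0.079 (95% interval -1.17 to 1.33, unadjusted p = 0.883), with -0.21 without vehicle replicate 2 and -0.20 without DCA replicate 1. Over all genes tested, the deviations of the same-numbered libraries were almost uncorrelated (r = 0.0197 across genes). That value cannot show whether same-numbered libraries share a mouse or culture.

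**Figure D1:**
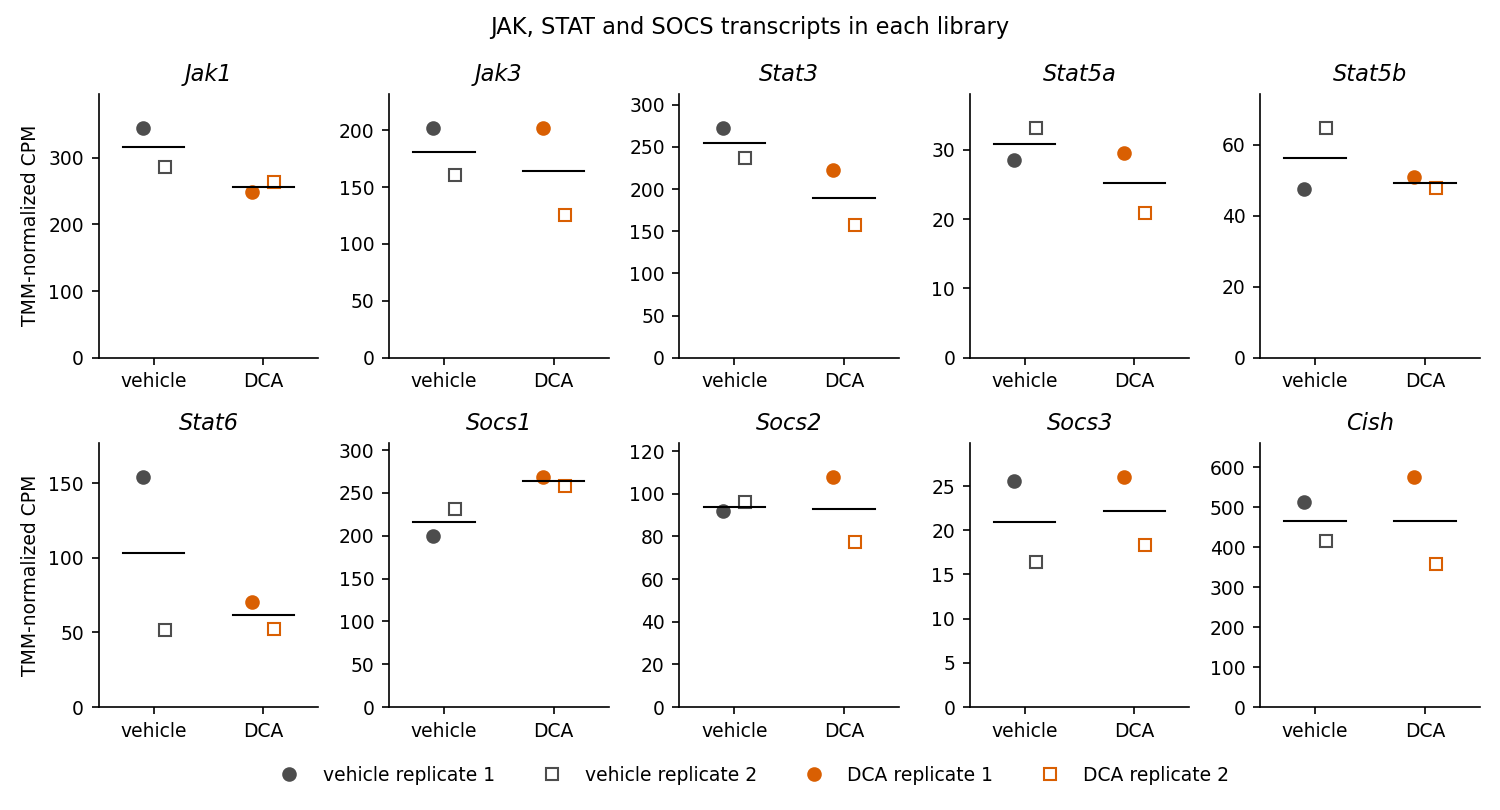
TMM-normalized CPM (vertical axis, from 0) of the 10 genes in each library, with vehicle at left and DCA at right of each panel; filled circles are replicate 1, open squares replicate 2, and bars the group means. DCA libraries are both below both vehicle libraries for Jak1 and Stat3 and both above them for Socs1, and Stat6 is high in vehicle replicate 1 (154 CPM).

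None of the 10 genes reached an adjusted p of 0.05 with edgeR, and none reached an unadjusted p of 0.05. The same was true of DESeq2 and of limma on log2(CPM + 1). Over all 11184 genes tested, 0% were called at an adjusted p of 0.05 with edgeR and 4.27% had an unadjusted p under 0.05, while DESeq2 called 1.17% of the 10967 genes for which it gave an adjusted p. Both DCA libraries were below both vehicle libraries for 2 of the 10 genes, against 14.7% of all genes tested, and above them for 1 of the 10, against 18.6% of all genes. With 2 libraries against 2, the exact two-sided permutation test cannot go below 0.333, and that was its value for Jak1, Stat3 and Socs1. The median log2 fold change of the 10 genes was -0.17, beside 0.0080 over all genes tested, and 7 of the 10 were below 0. That median depended on 1 library, since it was 0.046 without DCA replicate 2. The intervals bound what these libraries could have missed. For Socs1 they allow a DCA level between 0.847 and 1.77 times the vehicle level, for Jak1 between 0.561 and 1.17 times, for Cish between 0.618 and 1.63 times, and for Socs3, which had the fewest counts of the 10, between 0.444 and 2.51 times. A p above the threshold therefore does not show equal levels.

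**Figure D2:**
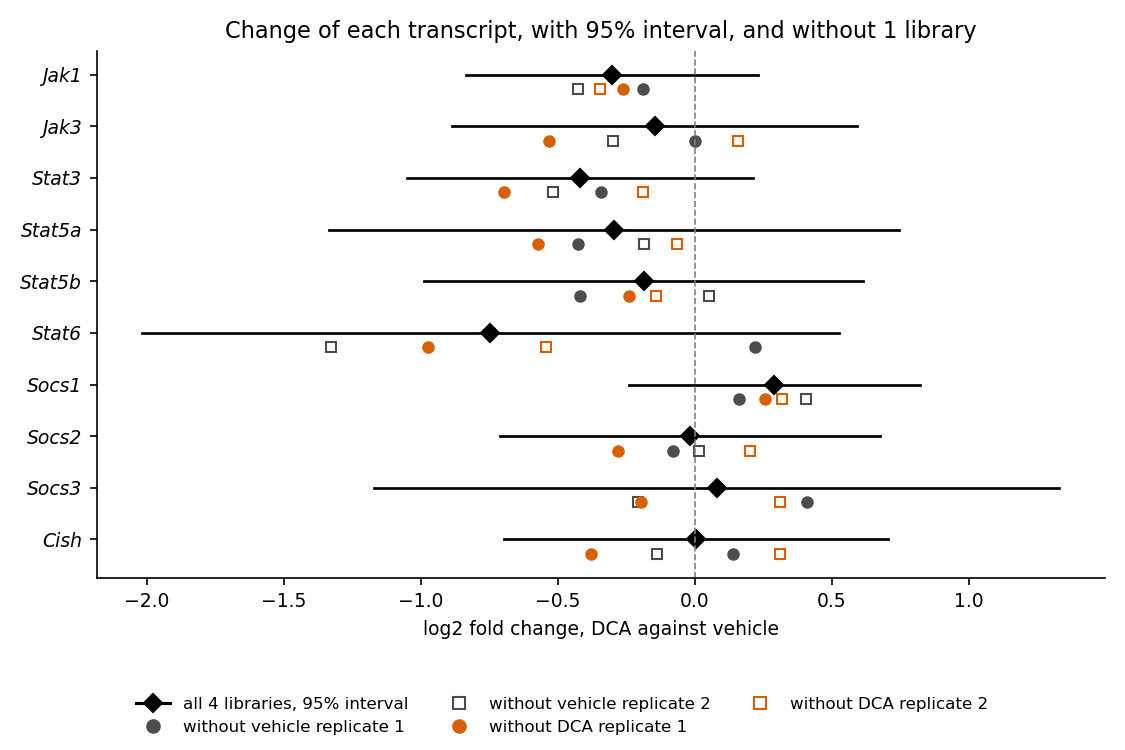
log2 fold change of each gene, DCA against vehicle (horizontal axis); black diamonds and lines are the edgeR estimate from all 4 libraries with its 95% interval, and the symbols under each line are the estimates with 1 library left out. Every interval includes 0, and leaving out vehicle replicate 1 moves Stat6 from -0.75 to 0.22.

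DCA replicate 2 was the lowest library for 5 of the 10 genes and lay below DCA replicate 1 for 9 of them, the exception being Jak1. Between the vehicle libraries, replicate 2 was below replicate 1 for 6 of the 10. The DCA libraries differed by 0.68 on the log2 scale for both Jak3 and Cish, beside a median of 0.30 over the 6332 tested genes above 20 CPM. Socs1, Stat5b and Jak1 differed by 0.053, 0.088 and 0.089 between the same libraries. Between the vehicle libraries, the difference was 1.55 for Stat6 and 0.61 for Socs3, and it was between 0.065 and 0.44 for the other 8, where the median over genes above 20 CPM was 0.42. Summed over the 4 inhibitors, CPM was 831 and 760 with vehicle and 977 and 712 with DCA. Summed over the 4 STAT genes it was 503 and 386 with vehicle and 373 and 278 with DCA, so both sums were lowest in DCA replicate 2. In bulk RNA, fewer expressing cells and less RNA per cell cannot be told apart, and RNA levels say nothing of phosphorylation, the step by which Janus kinases and STATs are switched on.

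Per kilobase of the longest transcript, the most abundant of these messages were those of the inhibitors Cish and Socs1, followed by the kinases. On this scale of TMM-normalized CPM per kilobase, the mean over 4 libraries was 99.2 for Cish, with a range of 76.2 to 122. Socs1 followed at 82.3 (68.5 to 92.3) and Jak1 at 58.3 (50.6 to 70.3). The ranges of Cish and Socs1 overlapped, as did those of Socs1 and Jak1, so neighbors at the top were not separated. Jak3 came next at 42.6 (31.0 to 49.8) and lay below the range of Jak1. Stat3, at 36.8 (26.1 to 45.1), overlapped Jak3. Socs2, at 22.0 (18.3 to 25.4), was below the range of Stat3 and overlapped Stat6, at 21.8 (13.7 to 40.8). The last 3 genes lay close together and below all of these, with Stat5b at 10.1 (9.14 to 12.4), Socs3 at 8.45 (6.41 to 10.2) and Stat5a at 7.08 (5.26 to 8.37). The 2 STAT5 genes, which serve IL-2 and IL-7, thus had lower message levels per kilobase than Stat3 and Stat6. The groups gave nearly the same order, since only Socs2 and Stat6 changed places between vehicle and DCA. With lengths from the union of all exons, 6 of the 10 genes kept their rank and Socs1 came first. Without division by length, 4 of the 10 kept their rank, and Jak1 stood between Cish and Socs1.

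Other members of the 3 families were read on the same scale. Jak2, which serves receptors such as those of IFN-γ, was at 31.5 CPM per kilobase on average (27.7 to 35.5). Tyk2, the fourth Janus kinase, was at 7.24 (3.36 to 9.56). Stat4, a STAT of IL-12, was at 14.7 (8.63 to 23.3) and Stat2 at 3.16 (2.22 to 4.18). All 4 other SOCS genes were below every one of the 10 genes by their means. They stood at 3.49 for Socs6, 2.23 for Socs4, 0.830 for Socs5 and 0.353 for Socs7.

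**Figure D3:**
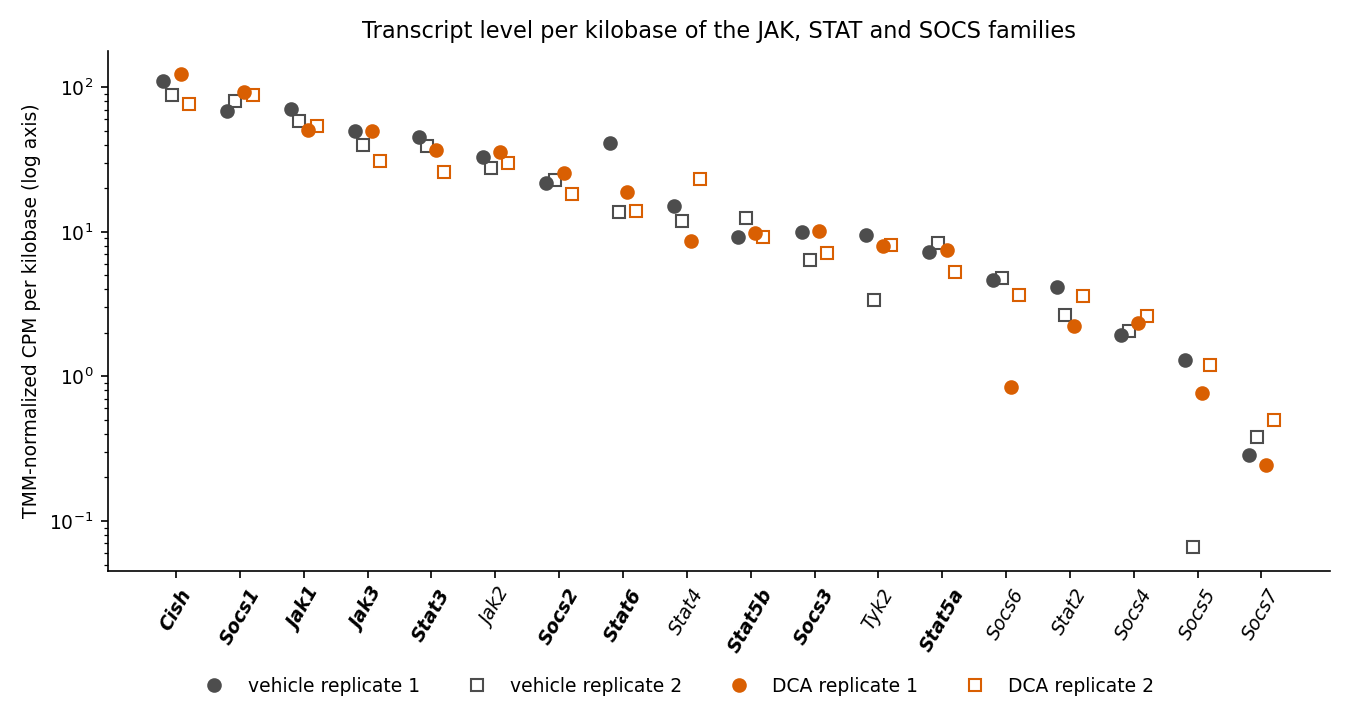
TMM-normalized CPM per kilobase of the longest GENCODE M21 transcript (vertical log axis) in each library for 18 Janus kinase, STAT and SOCS genes, ordered by their mean; the 10 genes of the list are in bold, vehicle in gray and DCA in orange. Cish (mean 99.2) and Socs1 (82.3) are at the top, and Socs5 and Socs7 are the only genes with a mean under 1.

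None of these 8 other family genes reached an unadjusted p of 0.05. Jak2 had a log2 fold change of 0.11 (95% interval -0.48 to 0.70) and Tyk2 of 0.31 (-1.03 to 1.65), where vehicle replicate 2 stood at 16.2 CPM and the other 3 libraries between 38.2 and 46.1 CPM. Stat2 was at -0.24 (-1.79 to 1.32) and Stat4 at 0.25 (-1.03 to 1.52). Each of these 4 directions turned when 1 library was left out. Socs6, whose libraries were at 28.2 and 29.1 CPM with vehicle and at 5.11 and 21.9 CPM with DCA, had a log2 fold change of -1.08 (95% interval -2.88 to 0.72, unadjusted p = 0.195). Leaving out DCA replicate 1 gave -0.39, and leaving out DCA replicate 2 gave -2.48 with an unadjusted p of 0.0301. Socs4 was at 13.3 and 14.1 CPM with vehicle and higher, at 16.0 and 18.0 CPM, with DCA, with a log2 fold change of 0.31 (95% interval -1.04 to 1.66). Socs5 (0.54, 95% interval -3.48 to 4.55) and Socs7 (0.16, -3.70 to 4.03), both near the bottom of the scale, had the widest intervals of the 8.

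The wider pathway was read from 8 lists with 63 distinct genes, of which 55 passed the filter of a mean of at least 1 CPM. None had an adjusted p under 0.05 with edgeR, and 4 were higher and 2 were lower in DCA at an unadjusted p under 0.05, which is 6 of 55 beside 4.27% of all genes tested. Of the 4, Il10ra and Il21r had a vehicle mean under 1 CPM and passed the filter only through the DCA libraries, so they had to differ. Among the 10 phosphatases, PIAS proteins and adaptors that restrain the pathway, 0 reached an unadjusted p of 0.05. The phosphatase gene Ptprc (CD45) had a log2 fold change of -0.029, with 463 to 540 CPM in all libraries, and Ptpn2, whose product dephosphorylates Janus kinases and STATs, one of 0.060, with 209 to 231 CPM.

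Of the 16 tested chains of receptors that use Janus kinases, 10 had a log2 fold change above 0 and 6 below. Over all 11184 genes tested, 5672 were above 0 and 5512 below. Of 16 tested genes, 9 were higher in each DCA library than in any vehicle library, beside 18.6% of all genes. The reverse held for 1 of 16, Il9r, beside 14.7% of all genes. Of the 9, Il10ra and Il21r passed the filter only through the DCA libraries, so their DCA mean had to be the higher one. The list was also chosen with earlier results of these data known, so no support is drawn from this count. Il2ra was the remaining gene of the list with an unadjusted p under 0.05. The 3 chains of the IL-2 receptor and the IL-7 receptor chain were all in that group of 9. Both receptors signal through JAK1 and JAK3. Il2ra, the α chain, was at 1075 and 1231 CPM with vehicle and at 1615 and 1585 CPM with DCA, with a log2 fold change of 0.47 (95% interval 0.012 to 0.93, unadjusted p = 0.0459, adjusted p = 0.999). Its unadjusted p lay between 0.0107 and 0.108 over 9 alternatives with all libraries, was under 0.05 in 4 of them, and was 0.186 without vehicle replicate 1. Il2rg, the common γ chain to which JAK3 binds, was at 1237 and 1280 CPM with vehicle and at 1640 and 1439 CPM with DCA (log2 fold change 0.29, 95% interval -0.17 to 0.75). Il2rb (log2 fold change 0.57) and Il7r (0.53, unadjusted p = 0.0531) were named after their values were seen, to complete these receptors. Il9r and Il4ra belong to other receptors that use the common γ chain, and both had a log2 fold change below 0. Il9r was at 62.2 and 65.5 CPM with vehicle and at 46.0 and 46.4 CPM with DCA (log2 fold change -0.47). Il4ra had a log2 fold change of -0.35, with overlapping groups. Both were also named after their values were seen.

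Larger differences in that list came from genes near 0 with vehicle. Il10ra, the ligand-binding chain of the IL-10 receptor, which uses STAT3, was at 0 and 1.26 CPM with vehicle and at 23.6 and 27.3 CPM with DCA. Its log2 fold change was 5.36 (95% interval 1.04 to 9.69). Il21r, the IL-21 receptor, had 0 counts in both vehicle libraries. Its DCA libraries were at 25.3 and 2.76 CPM, and their mean was at least 142-fold higher than vehicle set to 3 counts per library. The DCA libraries thus differed widely from each other for Il21r and little for Il10ra. Both genes were tested only because the DCA libraries raised their mean over the filter, and no call is drawn from them.

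Among ligands, 1 of 8 tested genes was higher and 1 lower in DCA at an unadjusted p under 0.05. Of all 11184 genes tested, 284 were higher and 194 lower at that threshold. Il9, a type 2 cytokine that acts through the common γ chain, was at 169 and 345 CPM with vehicle and at 547 and 899 CPM with DCA, with a log2 fold change of 1.49 (95% interval 0.49 to 2.49, unadjusted p = 0.0102). Its adjusted p was 0.999 with edgeR and 0.00627 with DESeq2. Il10, an anti-inflammatory cytokine, was at 466 and 606 CPM with vehicle and at 319 and 378 CPM with DCA, with a log2 fold change of -0.62 (95% interval -1.19 to -0.048, unadjusted p = 0.0379). Osm, oncostatin M, overlapped between groups, with a log2 fold change of 0.43 (95% interval -0.32 to 1.18).

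Known STAT target genes lay on both sides of 0. Of 9 tested STAT5 targets other than Cish and Socs2, Il2ra was higher and Gzmb lower at an unadjusted p under 0.05. Over all 11184 genes tested, 284 were higher and 194 lower at that threshold. The median log2 fold change of these targets was 0.35, beside 0.0080 over all genes tested. Gzmb, which encodes granzyme B, was at 13341 and 9757 CPM with vehicle and at 5621 and 8262 CPM with DCA (log2 fold change -0.73, 95% interval -1.35 to -0.11, unadjusted p = 0.0271). Of the 7 STAT3 and STAT6 targets, 0 reached an unadjusted p of 0.05, and the median was -0.072. Gata3, the transcription factor that defines ILC2s, had a log2 fold change of -0.072, and Bcl3, a nuclear cofactor of NF-κB, one of 0.19.

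**Figure D4:**
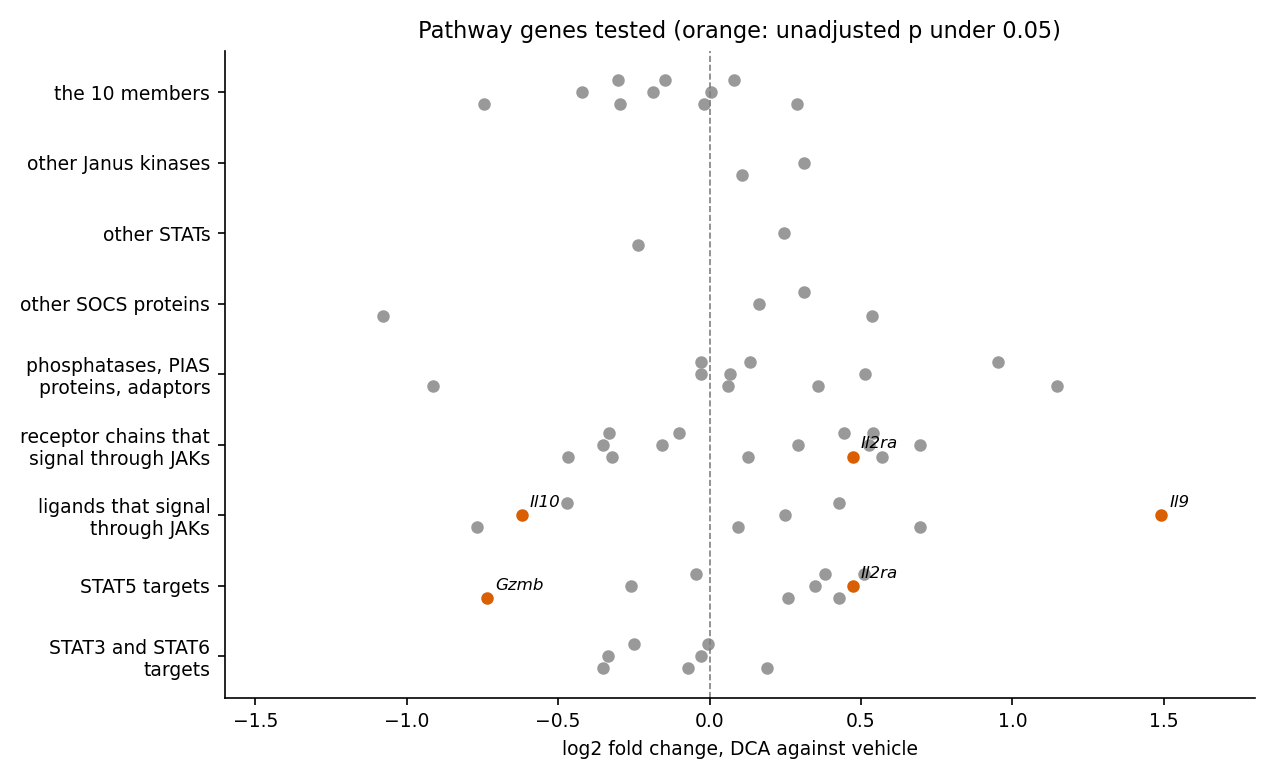
log2 fold change, DCA against vehicle (horizontal axis), of each tested gene of the list of 10 and of the 8 wider lists (rows); orange points had an unadjusted p under 0.05 and carry their names. Il21r and Il10ra (5.36), in the list of receptor chains, lie beyond the right edge and are not drawn.

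Markers of other cell types were low beside the 8 ILC2 markers, which summed to 12169 and 10850 CPM with vehicle and to 12717 and 14802 CPM with DCA, most of it Il5. Klrg1, Il1rl1 and Areg of that list lay lower with DCA, and Il7r and Il5 lay higher. Klrg1, a gene of the sort, was at 688 and 678 CPM with vehicle and at 463 and 356 CPM with DCA (log2 fold change -0.74, 95% interval -1.28 to -0.20, unadjusted p = 0.0154). Il1rl1, the IL-33 receptor, was at 833 and 877 CPM with vehicle and at 599 and 533 CPM with DCA (log2 fold change -0.60, unadjusted p = 0.0229). Areg, which encodes amphiregulin, was at 532 and 512 CPM with vehicle and at 434 and 254 CPM with DCA (log2 fold change -0.60, unadjusted p = 0.0868). Il7r was at 374 and 351 CPM with vehicle and at 583 and 461 CPM with DCA (log2 fold change 0.53, edgeR unadjusted p = 0.0531). Il5 was at 8867 and 7727 CPM with vehicle and at 9963 and 12334 CPM with DCA (log2 fold change 0.43, edgeR unadjusted p = 0.0603). The groups did not overlap for any of these genes, and none had an adjusted p under 0.05 with edgeR. The part of such shifts in the values of the 10 genes was not tested. Lists with lower sums in both DCA libraries were those of macrophages and B cells. The 5 macrophage and monocyte markers, nearly all of it Cd68, summed to at most 24.7 CPM in the vehicle libraries against 7.31 and 10.2 CPM in the DCA libraries. Cd68 itself was at 24.1 ± 0.206 CPM (SD, n = 2) with vehicle. In that list the defining receptor gene Csf1r was at 0 in all libraries, and Lyz2 held at most 2 counts in any library. The 3 B cell markers, nearly all of it Cd79b, summed to 55.2 and 47.3 CPM with vehicle and to 37.8 and 44.5 CPM with DCA. Ms4a1 of that list held at most 2 counts and Cd79a at most 10 counts in any library. Stat3 and Jak1 were likewise lower with DCA, and the part of such cells in those values was not tested. The sum of 7 T cell markers lay between 11.2 and 26.7 CPM and overlapped between groups, mainly from Cd3g, with Cd4 and Cd8a at 0. The 5 epithelial markers summed to 7.74 to 13.5 CPM and the 5 mast cell and basophil markers to 0.379 to 4.71 CPM. All 4 ILC3 markers were at 0 in every library.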

How the data were processed

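RNA-Seq libraries of ILC2s were assigned to vehicle or DCA by their labels. The authors used a SMART-Seq HT kit for cDNA synthesis and sequenced paired reads of 150 bases, which were trimmed (cutadapt 1.9) and mapped to mm10 (HISAT2 2.2.1). The deposited table is named for FPKM, but it holds raw counts per gene, all of them whole numbers. The counting tool and its strand setting are not given in the sources used here. Total counts ranged from 26564059 to 244165712. Rows without a symbol, between 0.137% and 0.173% of a library's counts, kept their Entrez identifiers.

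The 11184 genes whose mean reached 1 CPM were tested with the two-sided quasi-likelihood test of edgeR 4.0.16 in R 4.3.3 after TMM normalization, with Benjamini-Hochberg adjustment over all of them. Standard errors and 95% intervals were derived from the F statistic. Fold changes of genes with a group at or under 3 counts are given as bounds, with such libraries set to 3 counts. The test was run on simulated counts as a check of the code, with a pass required only at a small spread between libraries. That check does not show how well the test works at the spread of these libraries. DESeq2 1.42.0, limma 3.58.1 on log2(CPM + 1), other scalings and filters, the replicate number as a block, DCA replicate 2 thinned to 31503313 counts, and leaving out each library were alternatives. Levels per kilobase used GENCODE M21 transcripts (GRCm38). Positions and promoter windows came from RefSeq (GRCm38.p6), in which all 10 positions and 9 of 10 promoters matched; the promoter of Socs2 did not. Matches to motifs were counted on both strands.

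The members and gene lists were chosen with earlier results of these data known. From the wider lists, genes with an unadjusted p under 0.05 and the 2 with the highest mean CPM were named, and lists of up to 4 genes in full. A gene of the wider lists and a cell type marker are not reported here. Human samples, metabolomics and protein measurements were not used.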

Additional observations from a re-analysis of the deposited data

How the results depend on the processing

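The count of the 10 genes at an adjusted p under 0.05 was 0 in every fit run, while over all genes it was 0 in the reported fit, 36 with no filter on low counts, 128 with DESeq2, and 0 to 20 without 1 library (20 without vehicle replicate 1). Of 90 log2 fold changes of the 10 genes under alternatives that used all libraries, 85 kept their direction. The other 5 were all of Cish, at -0.018 with median-of-ratios scaling, -0.0042 with total-count scaling, -0.018 with DESeq2, -0.027 with the replicate block and -0.027 with limma. Of 40 without 1 library, 10 turned. The ranges were -0.53 to 0.16 for Jak3, -0.42 to 0.052 for Stat5b, -1.33 to 0.22 for Stat6, -0.28 to 0.20 for Socs2, -0.21 to 0.41 for Socs3 and -0.38 to 0.31 for Cish. Among the other named genes they were -0.025 to 0.23 for Jak2, -0.25 to 1.23 for Tyk2, -0.62 to 0.10 for Stat2, -0.64 to 0.79 for Stat4, -0.39 to 3.87 for Socs5, -0.45 to 0.58 for Socs7, -0.13 to 0.059 for Ptprc and -0.32 to 0.14 for Gata3. The cause was not tested. Stat6 had an unadjusted p of 0.0285 with no filter (adjusted p = 0.885) and of 0.00415 without vehicle replicate 2 (adjusted p = 0.304). Il9 had an adjusted p of 0.000399 with no filter on low counts. Il21r gave no value without DCA replicate 1, where its mean was under the filter. Without 1 library, unadjusted p-values rose to as much as 0.0666 for Il9 and 0.223 for Il10 (without DCA replicates 2 and 1) and 0.232 for Gzmb (without DCA replicate 1).

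The replicate numbers were shared by the groups, but over all genes tested same-numbered libraries did not deviate together (r = 0.0197 across genes). A shared origin of same-numbered libraries is not excluded by that value. With the replicate block, 0 genes had an adjusted p under 0.05 and 450 had an unadjusted p under 0.05, against 478 without it. Thinning DCA replicate 2 left all 10 directions as they were. Where 1 library of a group was left out, the remaining one was assumed to vary like the other group. With 2 libraries per group, no difference within a gene's 95% interval was excluded here.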
